A study of Mus musculus with 18 samples.

Results

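The interaction of mito and matrix is the part of the difference between cells with and without mito that depends on whether the cells sat on a soft or a stiff matrix. It was computed for each gene as the log2 difference of Stiff+mito minus Stiff, less the log2 difference of Soft+mito minus Soft, so a positive value means a larger mito fold on the stiff matrix and a negative value a larger one on the soft matrix. It used 12 of the 18 RNA-seq libraries of the study, 3 in each of 4 groups: Soft and Stiff, which carried no mito, and Soft+mito and Stiff+mito. The other 6 libraries, from the 2 groups labelled TW, entered an alternative fit only. All libraries are labelled as the same mouse cell, RAW264.7, a macrophage-derived line made with Abelson virus. The labels do not spell out mito and give no stiffness, time or dose, and the series title speaks of mitochondria transfer that depends on stiffness. The labels call the 3 libraries of a group biosamples without saying that they were separate cultures, so the p-values rest on a spread between libraries that may be technical only.

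Cells sense a stiff substrate through integrins and collagen receptors such as Ddr1 and Ddr2, through focal adhesion kinase (Ptk2) and through small GTPases such as Rhoa and Rac1, which set actin tension. These routes reach transcription through the immediate early genes (Fos, Jun and Egr family factors, made within minutes of a stimulus and quickly degraded), serum response factor and YAP/TAZ. Mitochondria taken up by a cell can be used or degraded, and stressed mitochondria are known to engage the integrated stress response through Atf4, the antioxidant response through Nrf2, and mitochondrial chaperones.

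The labelled cell type was checked first. Csf1r, the receptor for the macrophage growth factor, had group means of 0.0533 to 0.200 TPM (transcript abundance scaled for gene length and to a common sum). The macrophage surface protein Adgre1 had 0 to 0.0467 TPM and the pan-leukocyte Ptprc 0.0267 to 0.0400 TPM. Of 18 macrophage markers in the table, 5 passed the filter on low counts, 1 had a mean of at least 10 TPM and 0 had a called interaction. The summed level of the list was 42.4 to 43.4 TPM in Soft, 52.4 to 56.8 in Soft+mito, 34.0 to 38.9 in Stiff and 43.4 to 46.5 in Stiff+mito. Keratin 8 (Krt8) stood at 703, 724, 456 and 476 TPM in Soft, Soft+mito, Stiff and Stiff+mito, and vimentin (Vim) at 2166, 2504, 1426 and 2018 TPM. Csf1r, Adgre1 and Ptprc were thus at or near 0 in all 4 groups, while the myeloid lysozyme Lyz2 had group means of 5.59 to 9.76 TPM. Of the other epithelial genes examined by level, Krt18 had 247 to 312 TPM and Epcam 0.0167 to 0.0333 TPM. The low levels of Csf1r, Adgre1 and Ptprc do not bear out the macrophage label. What the cells are was not tested. In bulk RNA, fewer cells of a type and less RNA per cell cannot be told apart.

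Of 12063 genes tested, 2660 (22.1%) had an interaction at a Benjamini-Hochberg adjusted p under 0.05 in edgeR's quasi-likelihood test, which is the meaning of "called" throughout. The interaction was positive for 1343 genes (11.1%) and negative for 1317 (10.9%). DESeq2's Wald test called 1586, of which 685 were positive and 1573 were also called by edgeR. Most of these interactions were small. The median size among called genes was 0.232 on the log2 scale, and 251 genes reached 0.5, of which 215 were positive and 36 negative. An interaction of at least 2-fold was called for 41 genes upwards and 10 downwards, but only 1 and 3 of these had a mean of at least 5 CPM (counts scaled to library size). The libraries were close to each other, with a common biological coefficient of variation of 0.0193, totals of 16054637 to 16887244 estimated counts, and a chi-square per degree of freedom of 1.18 to 2.17 between replicates.

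The shape of the interaction was described from the signs of the mito difference on each matrix, with no test of either difference. For 1913 of the 2660 called genes (71.9%) the sign differed between the matrices. A further 278 had the same sign and a larger size on Soft, and 469 the same sign and a larger size on Stiff. Among the 251 called genes of at least 0.5, the shares were 80.9%, 9.96% and 9.16%. On this log2 scale a called gene was therefore most often one whose mito difference crossed 0 between matrices. The share of such crossings over all tested genes was not counted. Choosing genes by the gap between their differences on Soft and Stiff can itself favour opposite signs. These shares alone therefore do not show a reversed response. The sign of a small difference could depend on the scale. On Soft, Srxn1 had a mito difference of 0.07 in log2 but -8.07 in TPM, and Idi1 0.05 in log2 but -4.92 in TPM. How many crossings hold in TPM was not counted. Fos, Klf2, Dusp1, Jun and Zfp36 were otherwise, with mito differences above 0 on both matrices.

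**Figure D1:**
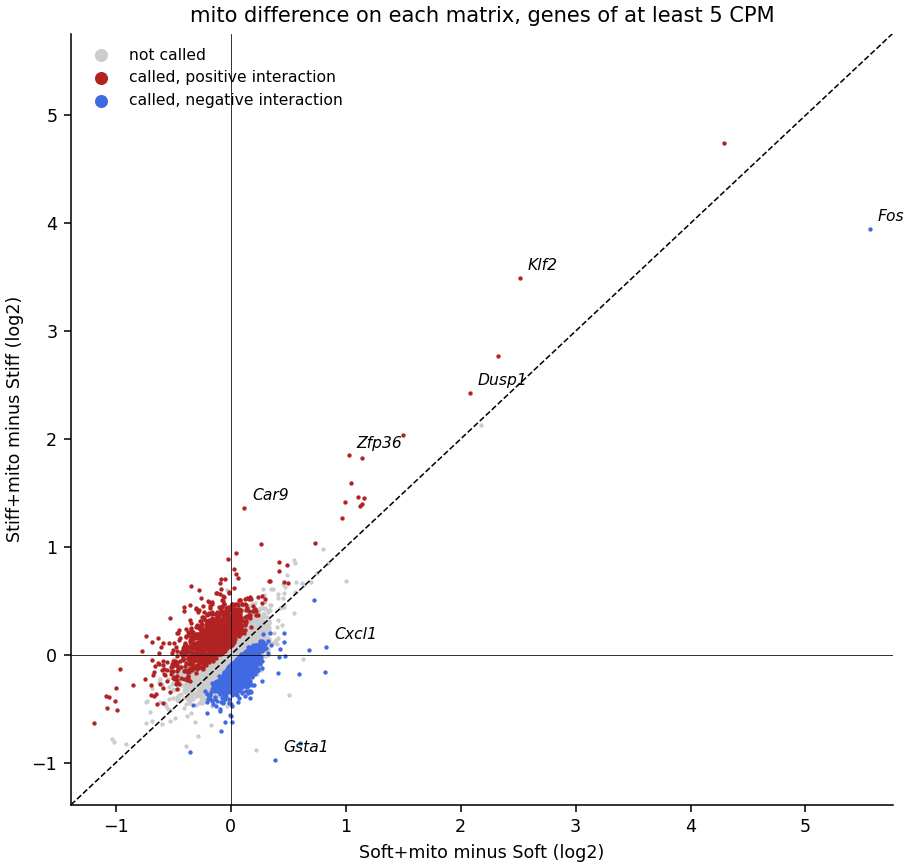
Each point is a gene with a mean of at least 5 CPM, with its log2 difference of Soft+mito minus Soft on the horizontal axis and of Stiff+mito minus Stiff on the vertical axis; the dashed diagonal marks no interaction. Red and blue points have a called positive or negative interaction, and Fos lies at 5.56 and 3.95, below the diagonal, while Klf2 lies at 2.52 and 3.49, above it.

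The immediate early genes held large interactions in both directions, among them the most negative one of genes of at least 5 CPM, that of Fos. In the list of 12 Fos, Jun and related AP-1 factors, 5 had a positive interaction, 3 a negative one, and the median was 0.18, or 0.09 after correction for length and GC content. In the list of 27 other tested immediate early genes, 10 (37.0%) had a positive interaction, 0 a negative one, and the median was 0.26, beside 11.1% and 10.9% called in each direction over all genes and a median of 0.01. All 10 called members of that second list had mito differences above 0 on both matrices.

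Jun, the partner of Fos in AP-1, was at 43.1, 45.7 and 44.6 TPM in Soft and at 92.8, 94.4 and 89.7 TPM in Soft+mito. On the stiff matrix it was at 41.9, 41.2 and 42.5 TPM without mito and at 143, 146 and 152 TPM with it. The groups without mito lay close together and the 2 groups with mito did not overlap each other. Its interaction was 0.68 ± 0.05 (SE; edgeR adjusted p = 1.58e-19), a mito fold of 2.21 on Soft and 3.53 on Stiff.

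Klf2, a zinc finger factor induced by mechanical flow in endothelium, was at 1.98, 2.12 and 2.19 TPM in Soft and 10.1, 12.0 and 12.0 TPM in Soft+mito. It was at 1.92, 2.64 and 1.48 TPM in Stiff and at 22.4, 22.8 and 22.3 TPM in Stiff+mito. The levels without mito overlapped between matrices, and those with mito did not. The interaction was 0.97 ± 0.23 (edgeR adjusted p = 0.000732) and ran from 0.79 to 1.22 when each library was left out in turn. Zfp36, which binds AU-rich mRNAs and speeds their decay, was at 21.4, 18.7 and 20.8 TPM in Soft and 43.0, 36.1 and 37.8 TPM in Soft+mito. It was at 14.0, 12.5 and 14.6 TPM in Stiff and 52.4, 47.4 and 47.1 TPM in Stiff+mito, the lowest and the highest of the 4 groups. Its interaction was 0.82 ± 0.10 (edgeR adjusted p = 3.8e-10).

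Rhob, an endosomal small GTPase made as an early response gene, had an interaction of 0.55 ± 0.06 (edgeR adjusted p = 4.77e-12), with a mito fold of 2.06 on Soft and 3.02 on Stiff. Junb had 0.42, Zfp36l1 0.43, Klf4 0.30, Klf6 0.26, Ier2 0.35 and Sik1 0.33, all called. Of 17 tested members of the list of MAP kinase feedback inhibitors, 5 were positive and 0 negative, with a median of 0.07. The called members were the phosphatases Dusp1, Dusp6 and Dusp10, with Spred3 and Phlda1, while Dusp2 (-0.62, adjusted p = 0.335 in edgeR's test) and Dusp8 (-0.16, 0.479) lay below 0. The count was 3 with DESeq2 and also without Soft replicate 3, Soft+mito replicate 3, Stiff replicate 2 or Stiff+mito replicate 2. Dusp1 stood at 52.5, 54.0 and 55.1 TPM in Soft and 224, 212 and 209 TPM in Soft+mito. It stood at 54.0, 58.5 and 55.5 TPM in Stiff and 296, 298 and 299 TPM in Stiff+mito, so the matrices overlapped without mito and were apart with it. The interaction of Dusp1 was 0.34 ± 0.05 and that of Dusp6 was 0.30 ± 0.04. Not all early genes took part: Myc (-0.02), Ccn1 (-0.05), Atf3 (0.01) and Ier3 (-0.06) had adjusted p-values of 0.727, 0.423, 0.962 and 0.147 in edgeR's test.

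Fos had the most negative interaction among genes of at least 5 CPM, and its sign depended on the scale. It was at 2.37, 3.77 and 2.48 TPM in Soft and at 133, 127 and 124 TPM in Soft+mito. It was at 16.2, 15.0 and 16.4 TPM in Stiff and at 241, 247 and 241 TPM in Stiff+mito. Both stiff groups thus lay above their soft counterparts, and the 4 groups did not overlap. The mito fold was 47.1 on Soft and 15.4 on Stiff, so the interaction on the log2 scale was -1.61 ± 0.12 (edgeR adjusted p = 1.18e-18). As a difference in TPM, the mito gain was 125 on Soft and 226.8 on Stiff, and the difference between the gains was 101.8 ± 3.37 TPM (SE) in favour of Stiff. Of the 2660 called genes, 2644 (99.4%) had the same sign on both scales, and Fos was among the 16 that did not. Aldh1l2, a mitochondrial folate enzyme, was another, with an interaction of 0.57 on the log2 scale and of -1.63 TPM. Its levels were 36.5, 35.7 and 35.6 TPM in Soft, 19.2, 18.5 and 18.5 TPM in Soft+mito, 106, 107 and 105 TPM in Stiff, and 87.5, 86.3 and 87.7 TPM in Stiff+mito. Similar losses in TPM were taken from very different levels without mito.

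**Figure D2:**
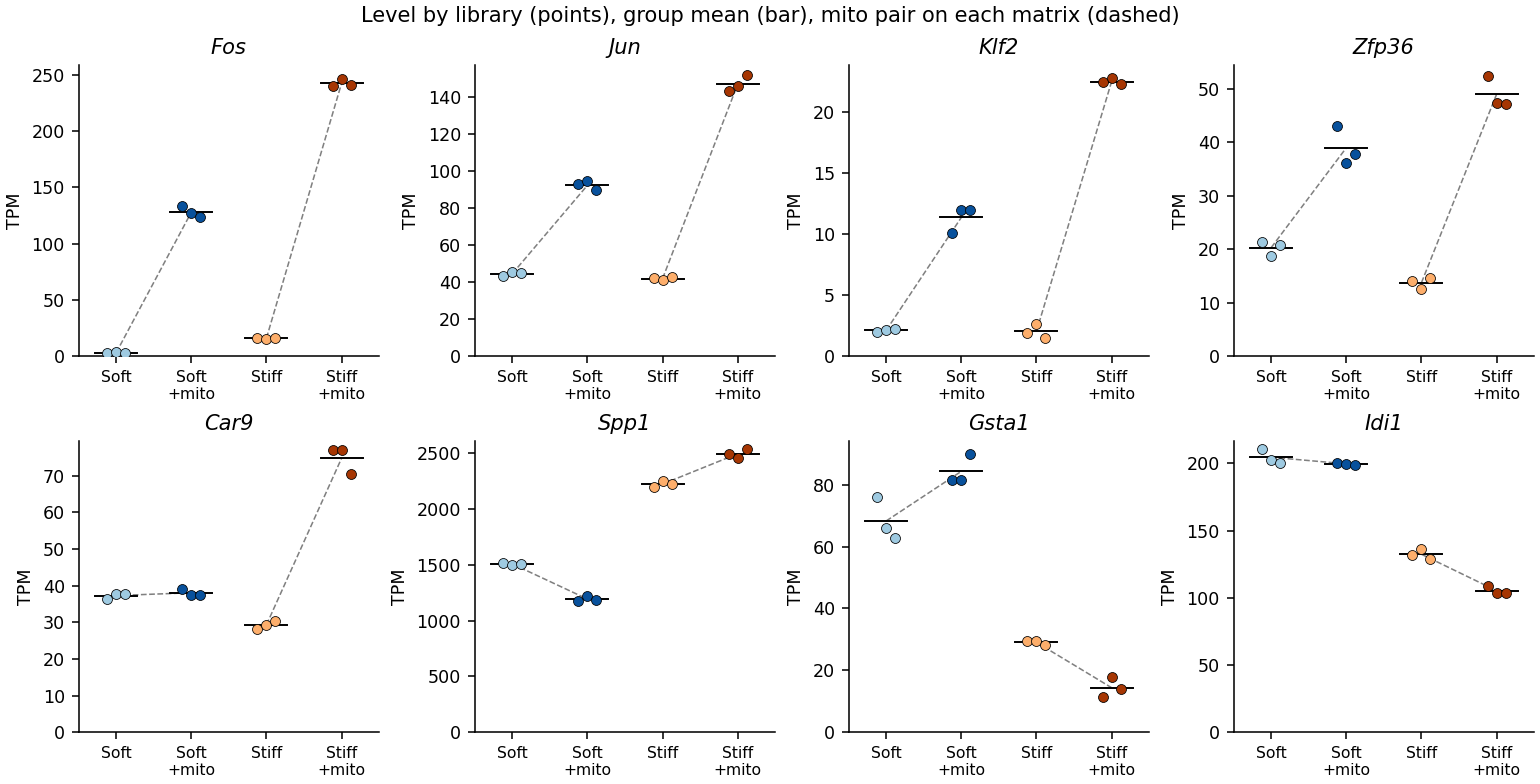
TPM (vertical axes, from 0) in each of the 3 libraries of the 4 groups for Fos, Jun, Klf2, Zfp36, Car9, Spp1, Gsta1 and Idi1; bars are group means and dashed lines join the groups without and with mito on each matrix. For Jun, Klf2 and Zfp36 the stiff line is the steeper, for Car9 the stiff line alone is steep, and for Spp1 and Gsta1 the lines slope in opposite directions.

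The sequence before the transcription start is shown for the early genes at the 2 ends of the interaction, Fos against Klf2 and Zfp36, and for Car9, which had the largest positive interaction of genes of at least 5 CPM. The 250 bases before the RefSeq start were read from the RefSeq promoter table (GRCm38.p6), 5′ to 3′ on the gene's strand. They lie at chr12:85473640-85473889 (plus strand) for Fos, chr8:72318812-72319061 (plus) for Klf2, chr7:28379229-28379478 (minus) for Zfp36 and chr4:43506776-43507025 (plus) for Car9. Capitals mark motif matches on either strand.
Fos: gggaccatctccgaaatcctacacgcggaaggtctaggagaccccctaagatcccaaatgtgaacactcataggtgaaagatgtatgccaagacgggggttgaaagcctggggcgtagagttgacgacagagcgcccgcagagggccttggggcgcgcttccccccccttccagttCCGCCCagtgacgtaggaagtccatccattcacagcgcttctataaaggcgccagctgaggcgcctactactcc
Klf2: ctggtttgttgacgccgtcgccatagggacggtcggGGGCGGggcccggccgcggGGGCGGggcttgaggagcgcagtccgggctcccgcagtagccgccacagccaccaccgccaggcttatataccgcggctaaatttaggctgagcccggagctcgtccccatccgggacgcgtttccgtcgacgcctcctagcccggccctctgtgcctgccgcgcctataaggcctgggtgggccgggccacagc
Zfp36: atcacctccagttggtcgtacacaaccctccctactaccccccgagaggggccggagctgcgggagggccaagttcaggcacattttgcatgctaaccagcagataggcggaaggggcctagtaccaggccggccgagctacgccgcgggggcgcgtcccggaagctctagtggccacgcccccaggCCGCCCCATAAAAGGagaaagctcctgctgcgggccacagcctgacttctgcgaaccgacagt
Car9: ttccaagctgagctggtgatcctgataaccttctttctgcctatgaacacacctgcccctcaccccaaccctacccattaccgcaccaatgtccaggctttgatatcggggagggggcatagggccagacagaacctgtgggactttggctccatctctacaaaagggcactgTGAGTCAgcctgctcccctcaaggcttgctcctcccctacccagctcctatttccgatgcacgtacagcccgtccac

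The motifs searched in the 300-base windows, 250 before and 50 after the start, were the CArG box of serum response factor, the cAMP response element TGACGTCA, AP-1 (TGACTCA or TGAGTCA), the Atf4 composite site TGATGCAA, and the KLF/Sp1 box GGGCGG. Zfp36 held a CArG box 58 bases before its start, overlapping a KLF/Sp1 box 63 bases before it, and CArG boxes occurred in 1.63% of 32851 RefSeq windows. Klf2 held KLF/Sp1 boxes 214 and 195 bases before its start and Fos one at 74, a motif found in 35.7% of windows. Car9 held an AP-1 match 77 bases before its start, found in 5.20% of windows. Moap1 and Ppp1r15a, both with a negative interaction, each held a cAMP response element, at 16 and 12 bases before the start, and such elements occurred in 1.79% of windows. Of the 12 genes with the largest positive interaction 7 had a window, and of the 12 with the largest negative one 9 had. A match describes these letters only. Variant letters, sites outside the windows and motifs of hypoxia-inducible factor were not searched. A missing match therefore does not show that a gene lacks such an element.

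Car9, the surface carbonic anhydrase that is a standard target of hypoxia-inducible factor, had the largest positive interaction among genes of at least 5 CPM. It was at 36.3, 37.7 and 37.8 TPM in Soft and at 39.2, 37.4 and 37.6 TPM in Soft+mito, which overlap. It was at 28.1, 29.3 and 30.5 TPM in Stiff and at 77.0, 76.9 and 70.5 TPM in Stiff+mito, which do not. The interaction was 1.25 ± 0.07 (edgeR adjusted p = 2.64e-24), a mito fold of 1.09 on Soft and 2.58 on Stiff. Car12, a related carbonic anhydrase, was at 7.75, 7.02 and 7.85 TPM in Soft, 7.42, 6.47 and 6.69 TPM in Soft+mito, 8.30, 8.71 and 9.17 TPM in Stiff and 14.3, 13.2 and 15.0 TPM in Stiff+mito. Here too the group with both was the one set apart, and the interaction was 0.75 ± 0.10 (edgeR adjusted p = 1.56e-08).

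In the hypoxia list as a whole positive calls outnumbered negative ones, though most members were not called. Of its 26 tested members 7 (26.9%) had a positive interaction and 1 (3.85%) a negative one, with a median of 0.11, and 4 were positive with DESeq2. The collagen prolyl hydroxylases P4ha1 (0.21) and P4ha2 (0.27), the lysyl hydroxylase Plod2 (0.13), the HIF target Ankrd37 (0.88) and Fam162a (0.22) were positive, and Ndrg1 (-0.21) was negative. Several widely used targets did not pass: Vegfa had 0.01 (adjusted p = 0.85 in edgeR's test), Pdk1 0.08 (0.282), Egln3 0.03 (0.726) and Bnip3 0.11 (0.138). Within glycolysis, 5 of 22 tested members were positive and 3 negative, with a median of 0.02, and 8 were positive with library totals or a filter of at least 5 CPM. The positive ones included the enzymes Pfkm (0.53), Gpi1 (0.26), Eno2 (0.38) and Aldoa (0.21), and the negative ones were the transporters of lactate Slc16a1 (-0.34) and Slc16a3 (-0.22) and of glucose Slc2a1 (-0.14).

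Genes of the extracellular matrix formed the list with the highest share of positive interactions. Of 35 tested members, 24 (68.6%) had a positive interaction, 0 a negative one, and the median was 0.31. For 17 of the 24, the mito difference in log2 was below 0 on Soft and above 0 on Stiff, and for the other 7 it was above 0 on both. The first pattern was as common beyond this list, with 937 of all 1343 genes with a positive interaction. Fibronectin (Fn1) was at 168, 155 and 159 TPM in Soft and 134, 127 and 118 TPM in Soft+mito. It was at 302, 294 and 301 TPM in Stiff and 345, 334 and 333 TPM in Stiff+mito. The order of the groups with and without mito was reversed between matrices, with no overlap on either. Its interaction was 0.43 ± 0.03 (edgeR adjusted p = 2.56e-17).

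Osteopontin (Spp1), a secreted phosphoprotein that binds integrins, was at 1516, 1500 and 1504 TPM in Soft and 1174, 1218 and 1186 TPM in Soft+mito. On the stiff matrix it was at 2196, 2247 and 2221 TPM without mito and 2489, 2456 and 2537 TPM with it. The interaction was 0.44 ± 0.03 (edgeR adjusted p = 1.07e-19), and it showed the same crossing as Fn1. Among the thrombospondins Thbs1 had 0.76 and Thbs2 0.49. Among collagens Col6a3 had 0.64, Col16a1 0.51, Col1a1 0.47, Col1a2 0.44, Col5a1 0.36 and the basement membrane chain Col4a1 0.18, all called. Laminin chains ranged from 0.45 for Lamb2 to 0.09 for Lamc1 among those called, while Lama5 (0.32, adjusted p = 0.0737) and Lamb3 (-0.21, 0.639) did not pass edgeR's test.

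Among regulators of matrix breakdown, positive calls outnumbered negative ones. Of 20 tested proteases and inhibitors, 7 were positive and 1 negative, with a median of 0.20, or 0.10 when only genes of at least 5 CPM were tested. The positive ones numbered 2 with DESeq2, 4 with no filter on low counts, 3 without Stiff replicate 3 and 4 without Soft+mito replicate 3 or Stiff+mito replicate 1. Timp3, an inhibitor of metalloproteinases held in the matrix, was at 52.2, 49.6 and 50.5 TPM in Soft, 37.9, 38.7 and 36.4 TPM in Soft+mito, 102, 102 and 103 TPM in Stiff and 120, 118 and 117 TPM in Stiff+mito. Its groups crossed as those of fibronectin did, and its interaction was 0.56 ± 0.04 (edgeR adjusted p = 1.07e-19). Plaur, the receptor that localises urokinase to the cell surface, was the negative one at -0.52 ± 0.05 (edgeR adjusted p = 7.62e-13). The secreted TGF-beta-induced protein Tgfbi had an interaction of 0.59 ± 0.08 (edgeR adjusted p = 2e-08), with a mito fold of 1.02 on Soft and 1.54 on Stiff.

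Marker genes of matrix-making cells were also examined. Of the 9 fibroblast markers tested 5 (Col1a1, Col1a2, Pdgfra, Pdgfrb and Vim) had a positive interaction, with a summed level of 14367 to 14785 TPM in Soft, 15406 to 15730 in Soft+mito, 12655 to 12724 in Stiff and 12632 to 13986 in Stiff+mito. The summed level was thus higher with mito on Soft and overlapped on Stiff. Of the 5 osteoblast markers tested 3 (Runx2, Sparc and Spp1) had, with summed levels of 1651 to 1673, 1325 to 1371, 2329 to 2380 and 2618 to 2697 TPM in the same order. Most of the osteoblast sum was Spp1, with group means of 1507, 1192, 2222 and 2494 TPM in the same order. Vim had group means of 1426 to 2504 TPM, so the fibroblast sum rested largely on other members. The fibroblast list shares 5 genes with the matrix list and the osteoblast list shares 2, among them Col1a1, Col1a2, Sparc and Spp1. The fibroblast collagen Col1a1 had group means of 2.12 to 3.80 TPM, and 0 genes of either list were at 0 in all 12 libraries. Their part in the result was not tested. Matrix genes are also long, with a median effective length 2.10 times that of all genes, and after correction for length 22 were positive and 1 negative, with a median of 0.24. After correction for length and GC content 18 were positive and 1 negative, with a median of 0.21.

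**Figure D3:**
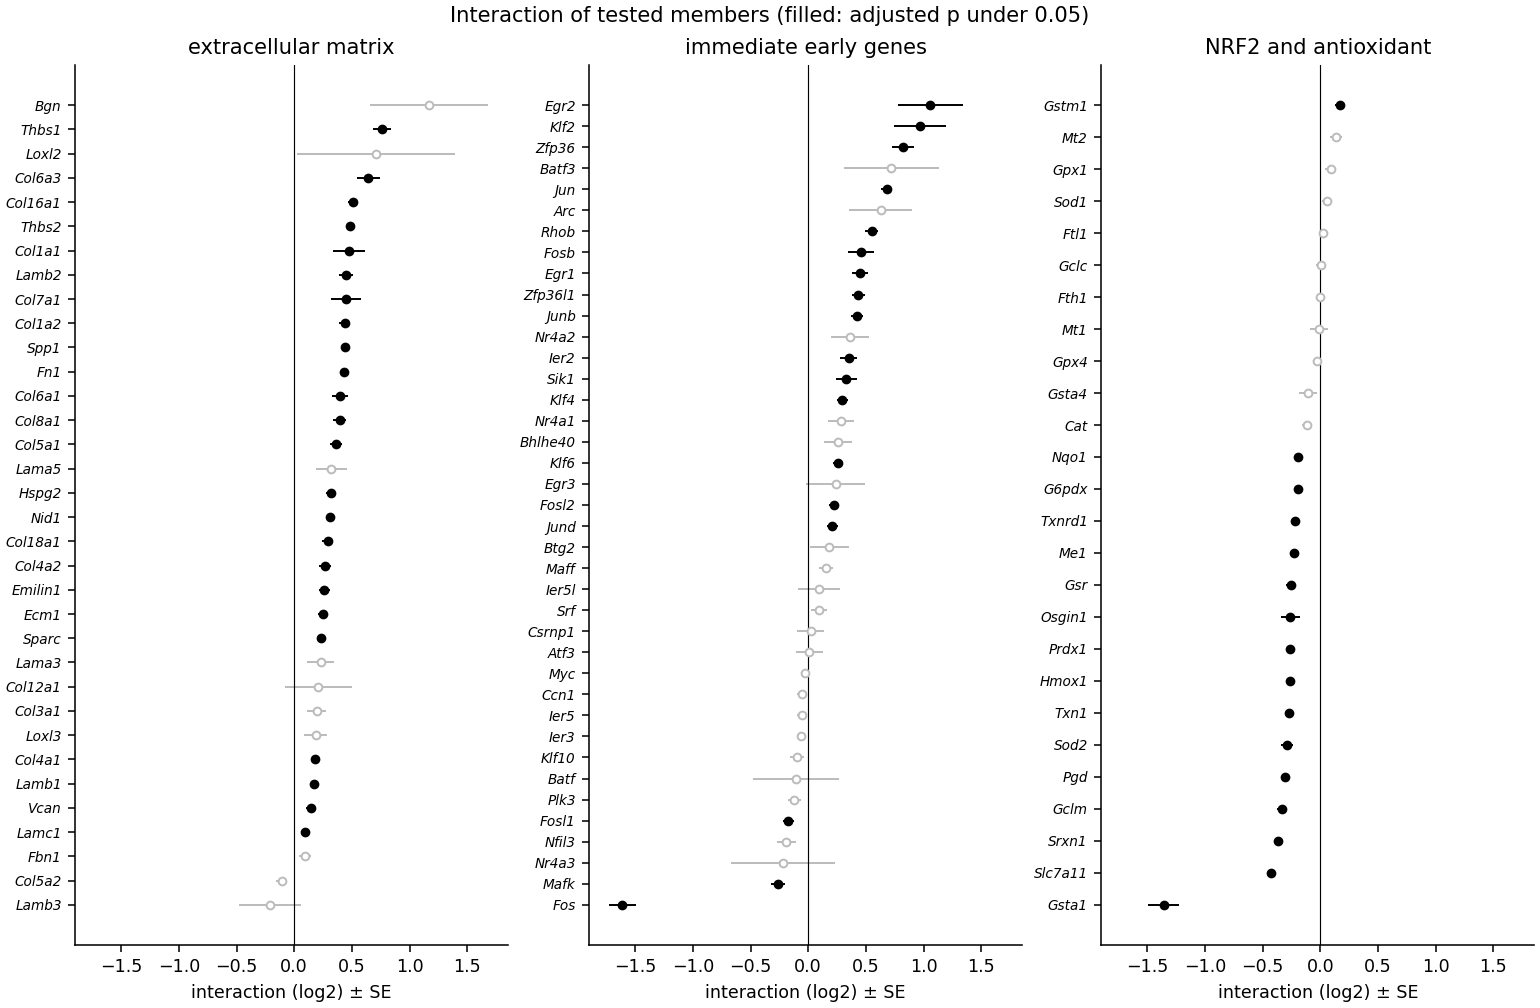
Interaction (log2, horizontal axis) with its standard error for tested members of the extracellular matrix list, the pooled immediate early lists and the NRF2 and antioxidant list; filled points have an adjusted p under 0.05. The 24 called matrix genes lie to the right of 0, the immediate early genes lie mostly to the right with Fos alone at the far left, and 15 of the 16 called NRF2 genes lie to the left.

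Targets of Nrf2, the factor that induces glutathione and thioredoxin enzymes, had mostly negative interactions. Of 26 tested members, 15 (57.7%) were negative and 1 (3.85%) positive, with a median of -0.21. For 12 of the 16 called members, the mito difference in log2 was above 0 on Soft and below 0 on Stiff. Of all 1317 genes with a negative interaction, 976 had this pattern. Srxn1, which repairs oxidised peroxiredoxins, was at 608, 587 and 585 TPM in Soft and 594, 589 and 572 TPM in Soft+mito, which overlap. It was at 444, 434 and 446 TPM in Stiff and 361, 352 and 361 TPM in Stiff+mito, which do not. Its interaction was -0.36 ± 0.03 (edgeR adjusted p = 3.22e-16).

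The cystine transporter Slc7a11 was at 106, 99.4 and 98.8 TPM in Soft and 90.6, 89.4 and 87.0 TPM in Soft+mito. In Stiff it was at 112, 110 and 107 TPM and in Stiff+mito at 77.5, 74.8 and 75.1 TPM, the lowest of the 4 groups. Its interaction was -0.43 ± 0.03 (edgeR adjusted p = 8.38e-18). Further negative members were of glutathione synthesis (Gclm, -0.33) and reduction (Gsr, -0.25), thioredoxin (Txn1, -0.27) and its reductase (Txnrd1, -0.22), NADPH supply (Pgd, -0.30, G6pdx, -0.20, and Me1, -0.23), heme oxygenase (Hmox1, -0.27), the quinone reductase Nqo1 (-0.19), peroxiredoxin 1 (Prdx1, -0.26), the mitochondrial superoxide dismutase (Sod2, -0.29) and Osgin1 (-0.26). Gclc (0.003), Fth1 (-0.001) and Ftl1 (0.03), of glutathione synthesis and iron storage, had adjusted p-values of 0.965, 0.981 and 0.551 in edgeR's test, and Gstm1 (0.17) was the positive member.

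Gsta1, a glutathione transferase, had the largest change in this list. It was at 76.0, 66.0 and 62.9 TPM in Soft, 81.4, 81.5 and 90.1 TPM in Soft+mito, 29.4, 29.6 and 28.2 TPM in Stiff and 11.4, 17.7 and 14.0 TPM in Stiff+mito. The highest and the lowest group were those with mito, and no groups overlapped. The interaction was -1.36 ± 0.14 (edgeR adjusted p = 4.57e-12). Gsta1 shares near-identical sequence with Gsta2, which had -0.62 ± 0.20, and how reads were divided between them is uncertain. The call of Gsta2 was lost with DESeq2 (adjusted p = 0.0732), and without Soft+mito replicate 3 (0.0518), Stiff replicate 2 (0.0555) or Stiff+mito replicate 3 (0.0779) in edgeR's test. Nrf2 targets were short genes, at 0.470 times the median length, and with the length correction 15 members were negative, 5 were positive and the median was -0.20.

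Enzymes of cholesterol synthesis, which the factor SREBP2 induces together, also had negative interactions. Of 29 tested members of the sterol and fatty acid list, 13 (44.8%) were negative and 2 positive, with a median of -0.16. Idi1, which makes the isoprenoid building block, was at 211, 203 and 200.2 TPM in Soft and 200.4, 199.7 and 198.8 TPM in Soft+mito. It was at 132, 136 and 129 TPM in Stiff and at 109, 104 and 103 TPM in Stiff+mito, so only the groups on the stiff matrix were apart. The interaction was -0.37 ± 0.04 (edgeR adjusted p = 4.6e-13). The steps before and after it gave Hmgcs1 -0.30, Fdps -0.20, Fdft1 -0.23, Sqle -0.27, Lss -0.25, Cyp51 -0.32, Msmo1 -0.32 and Sc5d -0.26, all called. The 2 positive members were the fatty acid desaturases Scd1 (0.17) and Scd2 (0.08). The fatty acid enzymes Fasn (0.02, adjusted p = 0.776) and Acaca (-0.001, 0.992), and the regulators Srebf2 (0.01, 0.847) and Insig1 (-0.002, 0.98), did not pass edgeR's test.

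Cytosolic chaperones had mostly negative interactions. Of 18 tested, 11 (61.1%) were negative and 1 positive, with a median of -0.15. The inducible Hsp90 gene Hsp90aa1 was at 1363, 1325 and 1326 TPM in Soft and 1402, 1435 and 1412 TPM in Soft+mito. It was at 992, 1012 and 1012 TPM in Stiff and 987, 953 and 962 TPM in Stiff+mito. The order of the groups with and without mito was again opposite on the 2 matrices, and the interaction was -0.22 ± 0.03 (edgeR adjusted p = 6.9e-09). Its co-chaperones Ahsa1 (-0.25), Chordc1 (-0.25), Stip1 (-0.15) and Dnaja1 (-0.22) were negative with it, as were Hsph1 (-0.20) and Bag3 (-0.22). The constitutive Hspa8 had -0.01 (adjusted p = 0.909 in edgeR's test), and the small heat shock protein Cryab was the positive member at 0.25.

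Nuclear genes for mitochondrial proteins were examined by list. The chaperones and proteases of the organelle gave 7 of 17 (41.2%) negative and 0 positive, with a median of -0.10. The matrix chaperonin Hspd1 was at 530, 511 and 506 TPM in Soft, 482, 486 and 472 TPM in Soft+mito, 596, 602 and 587 TPM in Stiff and 497, 505 and 499.7 TPM in Stiff+mito. In TPM both matrices had lower levels with mito, and the gap was wider on Stiff. The fitted mito fold was 0.989 on Soft and 0.848 on Stiff. Its interaction was -0.22 ± 0.03 (edgeR adjusted p = 2.82e-08).

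The mitochondrial ribosome gave 18 of 76 (23.7%) negative and 0 positive, with a median of -0.13, and 10 negative with DESeq2. Subunits of the respiratory chain gave 16 of 76 (21.1%) negative and 1 positive, with a median of -0.10. That median was -0.06 without Soft replicate 1, and 27 members were negative without Soft replicate 3. The electron carrier cytochrome c (Cycs) was the leading one at -0.36 ± 0.04 (edgeR adjusted p = 1e-10), followed in p by the ATP synthase subunit Atp5b (-0.19). Ndufa4 had -0.35 ± 0.06 (edgeR adjusted p = 7.62e-06), at 482, 513 and 510 TPM in Soft, 556, 558 and 570 TPM in Soft+mito, 533, 553 and 508 TPM in Stiff and 454, 460 and 448 TPM in Stiff+mito. Its mito groups lay above the others on Soft and below them on Stiff. The tricarboxylic acid cycle gave 8 negative and 2 positive of 27, with a median of -0.05, or -0.03 without Soft replicate 1, and 5 negative with DESeq2. Fatty acid oxidation (2 positive and 1 negative of 19) and mitochondrial dynamics and biogenesis (2 and 1 of 26) had shares at or below those of all genes in either direction. The table held 0 genes of the mitochondrial chromosome, so the organelle's own transcripts were not analysed here.

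The respiratory chain and both ribosomes are made of short genes, with median lengths of 0.154 (respiratory chain), 0.282 (mitochondrial ribosome) and 0.154 (cytosolic ribosome) times that of all genes. The cytosolic ribosome itself gave 16 of 79 (20.3%) negative and 0 positive, with a median of -0.07, which was -0.03 without Soft replicate 1. With no filter on low counts 27 of its members were negative. When genes were split into equal classes by effective length, the shortest class of 2023 genes had 18.6% negative and 4% positive calls. The negative shares of the respiratory chain (21.1%), mitochondrial ribosome (23.7%) and cytosolic ribosome (20.3%) lay near 18.6%. The median interaction of that class was -0.07, beside -0.10, -0.13 and -0.07 in these lists. Whether the lists differ from other short genes was not tested. With the length correction the median of the respiratory chain was -0.05, that of the mitochondrial ribosome -0.09 and that of the cytosolic ribosome -0.02. In that order 17, 15 and 15 members were negative, with 4 of the cytosolic ribosome positive. Over all 12063 tested genes the same correction gave 1590 negative and 1179 positive calls.

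The list of the integrated stress response had calls in both directions. Of 33 tested members of the Atf4 list, 11 (33.3%) were positive and 8 (24.2%) negative, with a median of 0.07, which was 0.00229 without Soft+mito replicate 3. With DESeq2 7 were positive and 7 negative. For 17 of the 19 called members the mito difference was below 0 on both matrices. The negative members were the transcription factors Atf4 (-0.26) and Ddit3 (-0.54), the phosphatase subunit Ppp1r15a (-0.63), the stress protein Sesn2 (-0.23), and the amino acid transporters Slc7a11 (-0.43), Slc38a2 (-0.18), Slc3a2 (-0.12) and Slc7a1 (-0.11). The positive members included enzymes of serine, folate, proline and cysteine metabolism: Psph (0.29), Psat1 (0.14), Shmt2 (0.12), Mthfd2 (0.20), Aldh1l2 (0.57), Pycr1 (0.45), Aldh18a1 (0.21) and Cth (0.58), together with the pseudokinase Trib3 (0.19), the transcription factor Cebpg (0.17) and Chac1 (0.14). The serine enzyme Phgdh (0.07, adjusted p = 0.127), asparagine synthetase (Asns, 0.08, 0.117) and the transporters Slc7a5 (0.10, 0.115) and Slc6a9 (0.12, 0.0569) did not pass edgeR's test. Functions were assigned after the values were seen.

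Atf4 itself was at 686, 673 and 692 TPM in Soft and 614, 615 and 616 TPM in Soft+mito, and at 826, 821 and 849 TPM in Stiff and 651, 654 and 657 TPM in Stiff+mito. Its interaction was -0.26 ± 0.03 (edgeR adjusted p = 8.15e-10). Ppp1r15a, whose phosphatase ends the response, was at 78.7, 78.4 and 75.0 TPM in Soft, 117, 115 and 118 TPM in Soft+mito, 115, 118 and 120 TPM in Stiff and 123, 118 and 121 TPM in Stiff+mito. Only Soft stood apart from the other 3 groups, and the interaction was -0.63 ± 0.04 (edgeR adjusted p = 1.07e-19). The list of endoplasmic reticulum stress had 4 negative and 1 positive of 22 (7 negative after correction for length), with Hspa5, the main chaperone of that compartment, at -0.21.

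Inflammatory and interferon genes were called about as often as all genes. Of 33 tested NF-kappaB targets 4 were positive and 5 negative (median -0.03, or 0.08 for those of at least 5 CPM), and of 41 interferon-stimulated genes 5 were positive and 5 negative (median 0.12), shares near the 11.1% and 10.9% of all genes. DESeq2 gave 2 positive and 3 negative of the former and 2 and 2 of the latter. The 4 positive NF-kappaB targets became 2 without Soft replicate 2, Soft+mito replicate 3, Stiff replicate 2 or Stiff+mito replicate 3, and the interferon counts fell to 2 or 3 in 1 direction without 5 of the libraries. Single members had large values. Cxcl1, a neutrophil chemokine, was at 71.6, 67.4 and 71.3 TPM in Soft and 123, 115 and 116 TPM in Soft+mito. It was at 183, 192 and 187 TPM in Stiff and 184, 200.0 and 196 TPM in Stiff+mito, which overlap. The interaction was -0.76 ± 0.06 (edgeR adjusted p = 1.44e-15). Gadd45b, a stress-induced gene shared by the p53 and YAP/TAZ lists, had the same form, at 53.4, 50.2 and 52.7 TPM in Soft, 73.4, 74.0 and 74.7 TPM in Soft+mito, 18.7, 14.8 and 19.1 TPM in Stiff and 14.1, 17.8 and 13.9 TPM in Stiff+mito. It was separated by mito on Soft and overlapped on Stiff, with an interaction of -0.77 ± 0.11 (edgeR adjusted p = 1.76e-07). In the oligoadenylate synthetase family Oasl1 had -0.98 ± 0.18 and Oas3 0.91 ± 0.18, both at levels of 1.11 to 6.40 TPM.

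Genes of the mechanosensing route itself had calls in both directions. Of 24 tested members of the adhesion and small GTPase list 5 (20.8%) were positive and 2 (8.33%) negative, with a median of 0.02 that became -0.01 after correction for length, when 3 were positive. The collagen receptor Ddr2 was at 43.5, 40.6 and 42.2 TPM in Soft and 29.3, 27.6 and 25.9 TPM in Soft+mito. It was at 81.1, 80.4 and 78.7 TPM in Stiff and 72.5, 69.5 and 69.7 TPM in Stiff+mito. The level was lower with mito on both matrices, by a fold of 0.699 on Soft and 0.883 on Stiff, so the interaction was positive at 0.34 ± 0.04 (edgeR adjusted p = 6.81e-11). Ddr1 had 0.29 ± 0.06 (edgeR adjusted p = 0.000467), with a mito fold of 0.989 on Soft and 1.21 on Stiff.

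Rac1 was called at -0.13 ± 0.03 (edgeR adjusted p = 0.000947). Ptk2 had -0.09 ± 0.04 (adjusted p = 0.0796) and Rhoa -0.07 ± 0.03 (0.0928) in the same test. Both passed when all 18 libraries were fitted (0.0343 and 0.022), and Ptk2 also passed without Soft+mito replicate 1 (0.0438) or 3 (0.05 as rounded) and with the length correction (0.00299). Tiam1, an activator of Rac1, was at 0.0200 to 0.470 TPM in the 12 libraries, and its interaction of 0.87 ± 0.62 (edgeR adjusted p = 0.335) was not detectable at this depth. Targets of YAP/TAZ gave 6 positive and 1 negative of 18, with a median of 0.10, among them Axl (0.11) and Crim1 (0.28). There were 3 positive with DESeq2, without Soft replicate 1 and after correction for length, when the median was 0.03 (0.01 with GC content as well), and the median was 0.06 without Soft+mito replicate 3. Axl had 0.06 after correction for length and GC content. Actin and serum response factor targets gave 7 positive and 6 negative of 34, with a median of 0.02, or -0.01 after correction for length alone.

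The S phase list gave 8 of 36 (22.2%) negative and 0 positive, with a median of -0.08, led by the replication clamp Pcna at -0.31 ± 0.04 (edgeR adjusted p = 2.7e-09). Pcna was at 704, 705 and 702 TPM in Soft, 716, 730 and 751 TPM in Soft+mito, 489, 479 and 503 TPM in Stiff and 424, 446 and 422 TPM in Stiff+mito. The mitosis list gave 5 negative (10.0%) and 1 positive (2.00%) of 50, no more than the shares of all genes, and 1 in each direction with DESeq2. It gave 2 negative with library totals and without Stiff replicate 2, Stiff+mito replicate 1 or Stiff+mito replicate 2. Over all genes 11.1% were positive and 10.9% negative. Targets of p53 gave 7 negative (31.8%) and 2 positive (9.09%) of 22, among them the inhibitor Cdkn1a (-0.23) and the p53 ligase Mdm2 (-0.18). Lysosomal genes gave 5 negative (17.9%) and 2 positive (7.14%) of 28, including Sqstm1 (-0.27), an adaptor of selective autophagy. Endocytosis and macropinocytosis gave 5 (14.3%) in each direction of 35, near the shares of all genes, with Cavin2 at 0.40 and Cdc42 at -0.16. There were 2 positive with DESeq2 and 3 without Soft replicate 1. TGF-beta and BMP targets gave 4 positive (22.2%) and 2 negative (11.1%) of 18, and 2 positive with DESeq2.

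**Figure D4:**
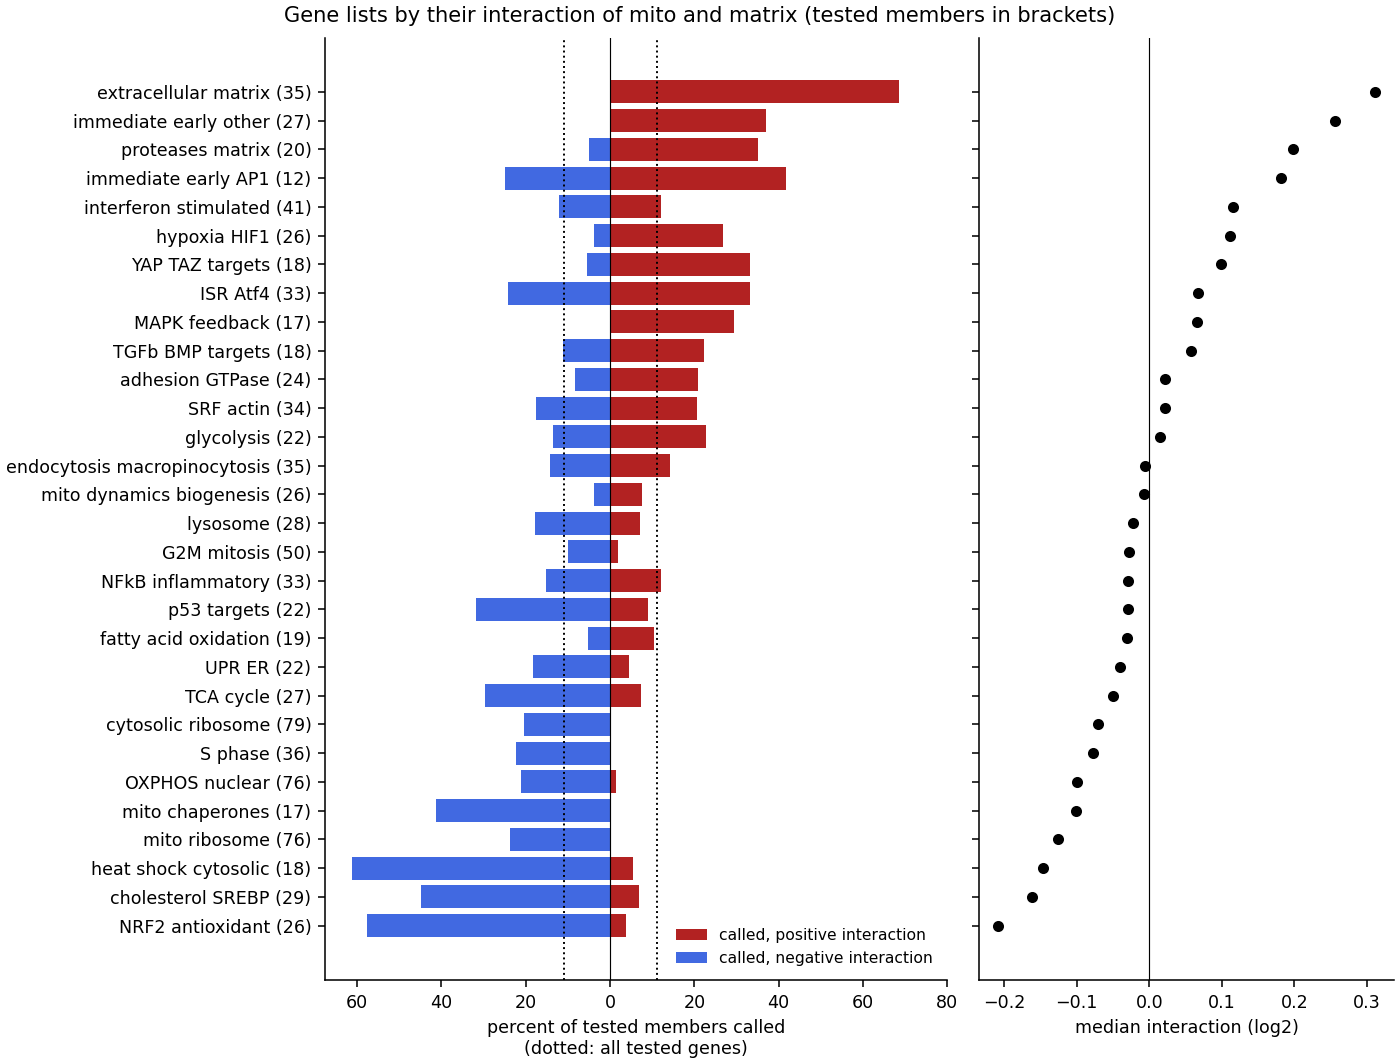
Left, the percent of tested members with a called positive (red, right) or negative (blue, left) interaction for each list of at least 10 tested genes, with dotted lines at the 11.1% and 10.9% of all genes; right, the median interaction of the list on the log2 scale. The extracellular matrix list lies at the top with a median of 0.31 and the NRF2 list at the bottom with -0.21.

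Other genes with a large interaction fell outside these lists. Dbp, a clock-controlled transcription factor, was at 10.1, 12.2 and 10.1 TPM in Soft, 10.7, 11.1 and 10.2 TPM in Soft+mito, 18.5, 16.0 and 16.2 TPM in Stiff and 34.2, 28.9 and 31.8 TPM in Stiff+mito. The soft groups overlapped and the stiff groups did not, and the interaction was 0.90 ± 0.13 (edgeR adjusted p = 1e-07). Gfra2, a receptor for the neurotrophic factor neurturin, had 0.85 ± 0.08. Moap1, a modulator of apoptosis, had -1.42 ± 0.24 (edgeR adjusted p = 0.000105) at levels of 1.03 to 4.53 TPM.

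The interaction was related to gene length across genes. Spearman's rank correlation was 0.280 with effective length over 10112 genes of at least 5 CPM and 0.151 with GC content over 9914 of them, given as a description since genes share libraries. From the shortest to the longest of 5 equal classes of genes the median interaction went from -0.07 to 0.06. The median mito difference went from 0.09 to -0.05 on Soft and from 0.02 to 0.01 on Stiff, so the trend was wider in the soft pair. Negative calls went from 18.6% to 4.89% of genes and positive calls from 4.00% to 23.6%. After a correction for length 2769 genes were called, 1179 positive and 1590 negative. The part of length in single genes was not tested beyond this correction.

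**Figure D5:**
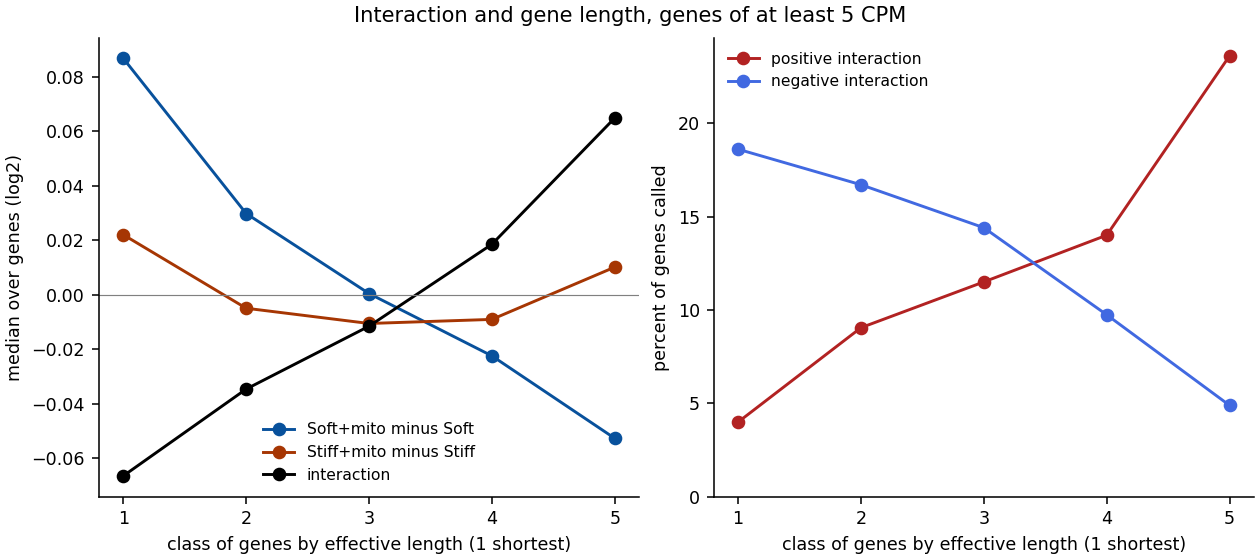
Left, the median mito difference on each matrix and the median interaction (log2) in 5 equal classes of genes by effective length; right, the percent of genes called in each direction. The line for Soft falls from 0.09 to -0.05, that for Stiff stays between -0.01 and 0.02, and positive calls become more frequent with length.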

How the data were processed

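RNA-seq of 12 libraries labelled Soft, Soft+mito, Stiff and Stiff+mito, 3 per group from the labels, was analysed. Libraries were poly(A)-selected, strand-specific and sequenced as paired ends, per the labels' protocols. For 18397 genes the authors deposited estimated counts (not normalized, judged from the values), 10.9% of which were not whole at a tolerance of 0.001. The authors also deposited TPM, per the file headers, a level scaled for length and to a common sum. The build is mm10 per the submitters' processing notes, while no source used here names the aligner or the quantifier. Gene identifiers were matched to RefSeq annotation of GRCm38.p6 (99.2%).

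Counts were rounded to whole numbers. Genes were kept by filterByExpr, libraries were scaled by TMM, and the interaction contrast was tested with edgeR 4.0.16 in R 4.3.3 (glmQLFit, robust; two-sided F-test, Benjamini-Hochberg over 12063 genes, threshold 0.05). Standard errors are the log2 value divided by the root of F. Total depth was 16054637 to 16887244. Simulated data for this interaction had 11980 tested genes, with changed genes drawn from those with a mean count of at least 50. Of genes with interaction folds of 1.25, 1.5 and 2, 61.2%, 95.5% and 98.5% were called, and of unchanged genes 0.153%. The simulated spread was the one fitted to these libraries, with no trend by gene length. These rates therefore do not cover a spread between separate cultures or an effect of length.

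The comparison, the 31 pathway lists and 9 marker lists and the naming rule were chosen with earlier results of these data known. Named genes were the 12 most positive and 12 most negative called genes with at least 5 CPM and an absolute log2 value of at least 0.5 (symbols of predicted genes were passed over), up to 4 called members per list with the smallest p, and Ddr2, Ptk2, Tiam1, Rhoa and Rac1; other list members named were chosen after their values were seen. Lists are described by counts and medians, with no test of the list. Of the 36 replication histones listed, 5 were in the table and 4 were tested, so that list is not described. The alternatives were DESeq2 1.42.0, limma-voom 3.58.1, other scalings and filters, all 18 libraries, a replicate block, each library left out, and, chosen after seeing the data, corrections for length and GC content. A few genes that the rule or the lists name are not reported here.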

Additional observations from a re-analysis of the deposited data

Results flagged for a closer look

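The difference in the mito effect between the soft and the stiff matrix was itself tested, so a called gene is one whose estimated mito difference differed between the matrices. There were 2660 such genes by edgeR's quasi-likelihood test, and at an adjusted p under 0.05 some of these calls can be false. Among the most positive of at least 5 CPM were Car9 (1.25), Klf2 (0.97), Oas3 (0.91), Pbld2 (0.91), Dbp (0.90), Cyp2d22 (0.88), Myo7a (0.86), Gfra2 (0.85), Zfp36 (0.82) and Lrp4 (0.81), as log2 interactions. Only Klf2 and Zfp36 among them are immediate early genes, and Car9 is the only one in the hypoxia list.

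The 12 most negative were Fos (-1.61), Moap1 (-1.42), Gsta1 (-1.36), Oasl1 (-0.98), Gadd45b (-0.77), Cxcl1 (-0.76), Cntnap4 (-0.63), Ppp1r15a (-0.63), Gsta2 (-0.62), Gstp-ps (-0.58), Zfp978 (-0.58) and Car6 (-0.57). Gstp-ps is a pseudogene, so its reads may be shared with its parent gene. Cntnap4, Gsta2 and Zfp978 lost their call with DESeq2 (adjusted p of 0.102, 0.0732 and 0.0562). Cntnap4 also lost it in edgeR's test without Soft+mito replicate 2 (adjusted p = 0.0567), Stiff replicate 1 (0.11) or Stiff+mito replicate 1 (0.144). Groups of 3 libraries are too small to be screened for outlying libraries.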

How the results depend on the processing

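Of the 133 called genes named, 116 were called in the same direction under every alternative that gave a value, 13 lost the call with DESeq2, 13 when 1 library was left out and 3 with the length correction, and 0 reversed. The count of called genes was 1586 with DESeq2 (685 positive) and 2287 to 2685 with a library left out. Interactions of at least 2-fold numbered 9 with DESeq2, 77 with no filter on low counts and 4 with a filter of at least 5 CPM, beside 51. The share of called genes with the same sign and a larger size on Stiff was 9.16% at an absolute interaction of at least 0.5, beside 17.6%. With library totals in place of TMM 58.3% of calls were positive, and with the length correction 42.6%, beside 50.5%.

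Replicate numbers did not pair the libraries. Deviations of same-numbered libraries correlated at -0.116 to 0.141, and 2 of 12 libraries correlated best with their own number. The replicate block gave 2802 called genes.

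List medians moved as follows, and the cause was not tested. With the length correction they were 0.2445 for extracellular matrix, -0.0923 for the mitochondrial ribosome, -0.0519 for the respiratory chain, -0.1278 for mitochondrial chaperones, and, with the opposite sign, -0.0087 for actin and -0.0083 for the adhesion list. With length and GC correction they were 0.2056 for extracellular matrix, -0.0806 for the mitochondrial ribosome, 0.0859 for AP-1, 0.0408 for the Atf4 list, -0.176 for cytosolic chaperones, -0.1877 for NRF2, -0.0373 for actin and -0.0074 for the adhesion list. DESeq2 gave -0.2278 for NRF2 and 0.1329 for matrix proteases, which had 0.1372 with no filter and 0.0972 with at least 5 CPM. That filter gave 0.0771 for NF-kappaB, 0.0139 for mitochondrial dynamics and 0.0025 for endocytosis, all of opposite sign, and library totals gave 0.0091 and 0.0097 for the last 2. Leaving out each library gave 0.0023 to 0.0794 for the Atf4 list, -0.1253 to -0.0973 for mitochondrial chaperones, -0.1647 to -0.1284 for cytosolic chaperones and 0.2577 to 0.3383 for extracellular matrix. It gave ranges across 0 for fatty acid oxidation (-0.0438 to 0.0233), mitochondrial dynamics (-0.0143 to 0.0158), NF-kappaB (-0.0521 to 0.0026), endocytosis (-0.0295 to 0.0065) and the adhesion list (-0.00041 to 0.0390).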
